A study of Mus musculus with 203 samples.

Results

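The TNF superfamily is a set of related cytokines, most of them made as membrane proteins, that act on receptors of the TNF receptor superfamily. Its genes were taken as every row whose symbol begins with Tnfsf or Tnfrsf and a number, together with Tnf, Lta, Ltb, Ltbr and Fas. In the table of RAW cells, 36 of 25094 genes met this rule, of which 14 encode ligands and 22 encode receptors. In the table of bone marrow-derived macrophages (BMDMs), 33 of 16478 genes met it, and each of these 33 is also among the 36. The BMDM table holds the authors' comparisons without values per library and was not analysed here, so every value that follows is from RAW cells.

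Ligands of this family act as trimers and bring together the cytoplasmic tails of their receptors. Receptors that carry a death domain, such as TNFR1 (Tnfrsf1a) and Fas, can start cell death, while many receptors bind TRAF adaptor proteins and activate NF-kappaB. Macrophages are a main source of TNF during inflammatory activation, which is commonly contrasted with the alternative activation that the cytokine IL4 drives through the transcription factor STAT6.

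RAW cells (RAW264.7) are a macrophage line of BALB/c mouse origin that was transformed with Abelson murine leukaemia virus. They carried either a lentiviral short hairpin RNA against GFP (shGFP, the control) or 1 against Kdm1a (shKDM1A), which encodes the lysine demethylase KDM1A, and were left without IL4 or received 20 ng/ml of IL4 for 6 h before RNA was extracted. Each of the 4 groups (shGFP, shGFP with IL4, shKDM1A and shKDM1A with IL4) had 4 libraries, 16 in all. A lentiviral hairpin was thus present in all 4 groups, and a single hairpin sequence stands for the depletion of KDM1A. The study's methods describe its experiments in general as having biological replicates, but the labels do not tie the 4 libraries of a group to separate cultures, so p-values measure the spread between these libraries, which may in part be technical.

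Between 17554721 and 27782568 tags were recorded per library. Expression is given as the deposited value per library, which is on a log2 scale. The transformation was not stated and resembles a regularized log, under which differences of weakly expressed genes would be understated. The median absolute difference between 2 libraries of a group lay between 0.036 and 0.056. Kdm1a itself had values of 11.21, 11.23, 11.13 and 11.17 in shGFP cells and of 10.36, 10.32, 10.23 and 10.29 in shKDM1A cells, a log2 difference of -0.88 ± 0.03 (SE). With IL4 it had values of 11.12, 11.10, 11.12 and 11.07 in shGFP cells and of 10.32, 10.33, 10.34 and 10.28 in shKDM1A cells, a difference of -0.79 ± 0.03. Of 10 macrophage markers, 9 passed the filter on low values, and the exception was Mertk, which was below 0 in every library. Fibroblast, epithelial and B cell markers all failed that filter, of 6 T cell markers only Lck (5.71 to 5.92) passed it, and of 5 dendritic cell markers 3 did, none above 4.22. The first 2 principal components separated the 4 groups, whereas the third, with 5.4% of the variance, set replicates 1 and 3 of shKDM1A with IL4 apart from 2 and 4, and replicates 1 and 4 of shGFP apart from 2 and 3.

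Genes were tested if 4 or more libraries had a value of 1 or higher, and 26 of the 36 were, 11 ligands and 15 receptors. Every 1 of these 26 reached that value in all 16 libraries, the lowest being Tnfsf8 at 1.10. Listed at 0 in every library were 5 genes, the ligand genes Tnfsf4, Tnfsf11 and Tnfsf15 and the receptor genes Tnfrsf11b and Tnfrsf19. The other 5 receptor genes, Tnfrsf9 (0.69 to 0.74), Tnfrsf13b (0.77 to 0.86), Tnfrsf13c (-0.67 to -0.64), Tnfrsf18 (-1.19 to -1.17) and Tnfrsf21 (-2.09 to -2.08), were below the filter. Of the 3 receptors of the B cell survival factor BAFF on this list, TACI (Tnfrsf13b) and BAFF-R (Tnfrsf13c) are among them, whereas BCMA (Tnfrsf17, 1.90 to 1.98) was tested.

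Levels of different genes were compared after subtracting the log2 of transcript length in kb. In shGFP cells without IL4, the TNF receptor Tnfrsf1a had the highest level per kb (10.05 ± 0.01, SD, n = 4), followed by Tnf (9.47 ± 0.06), Tnfsf9 (9.45 ± 0.04) and the lymphotoxin beta receptor Ltbr (9.33 ± 0.05). The levels per kb of Tnf and Tnfsf9 lay within 1 SD of each other. Next came Tnfrsf11a (8.75 ± 0.00), Ltb (8.68 ± 0.05) and Tnfrsf12a (8.57 ± 0.04), and then Tnfrsf1b at 7.58 ± 0.04. With IL4 the order among the highest changed, since Tnfrsf11a stood at 9.16 ± 0.03 per kb, above Tnf (8.84 ± 0.09) and Tnfsf9 (8.53 ± 0.04). A further group of 9 genes had levels per kb between 4.71 (Fas) and 6.71 (Tnfrsf23), and the remaining 9 lay between -0.05 (Tnfsf8) and 2.49 (Lta).

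**Figure D1:**
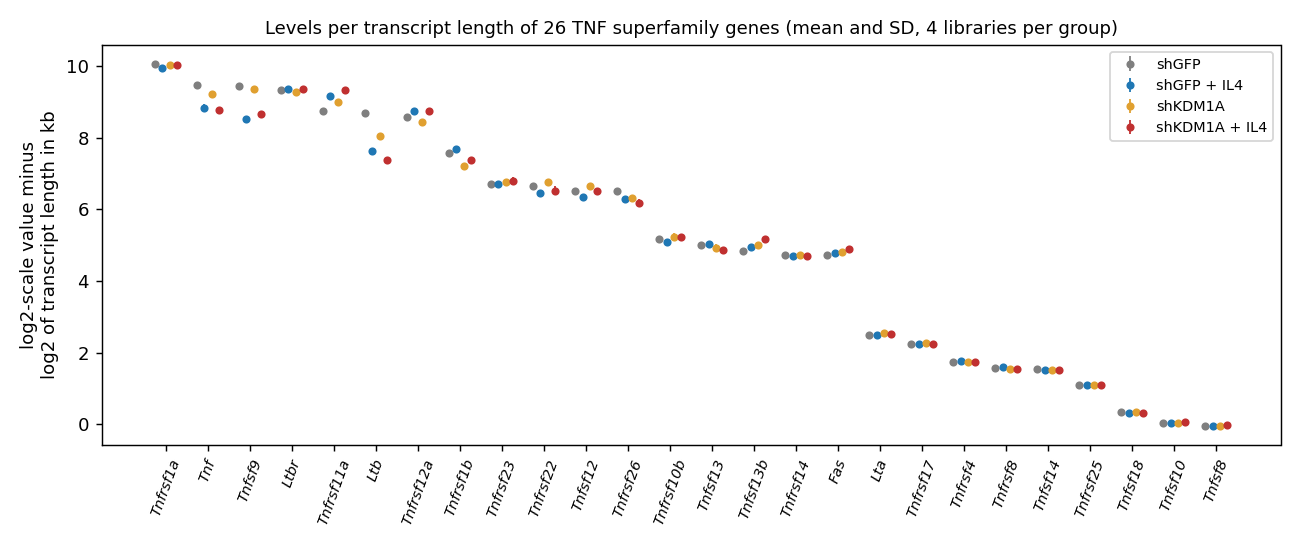
Levels of the 26 tested TNF superfamily genes, as log2-scale value minus the log2 of transcript length in kb (vertical axis), ordered by their level in shGFP cells. Points are means of 4 libraries with SD as bars. Tnf, Tnfsf9 and Ltb sit lower with IL4, and Tnfrsf11a sits higher, while the means of Ltbr stay between 9.27 and 9.37.

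Several of these genes lie close together in the genome. Coordinates are those of the deposited table, on mm9 (NCBIM37). On chromosome 17, Ltb (chr17:35331452-35333250, plus strand), Tnf (chr17:35336312-35338952, minus strand) and Lta (chr17:35340110-35342296, minus strand) follow each other, with 3.06 kb between Ltb and Tnf and 1.16 kb between Tnf and Lta. Tnfsf9 (chr17:57244808-57247180, plus strand) lies 81.7 kb from Tnfsf14 on the same chromosome. Tnfrsf11a is at chr1:107677300-107744558 (plus strand), Tnfrsf12a at chr17:23812412-23814416 (minus strand) and Tnfrsf1b at chr4:144802271-144836773 (minus strand).

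The sequences just upstream of the transcript starts of Ltb, Tnf and Tnfrsf11a are shown because these genes differed most clearly between groups among those with an upstream sequence in the reference. They are RefSeq's, located by exact match in NCBIM37, and run 5′ to 3′ on the gene's strand. They cover Ltb from base -250 to base -69 (chr17:35331202-35331383, plus strand), Tnf from base -250 to base -1 (chr17:35338953-35339202, minus strand) and Tnfrsf11a from base -250 to base -1 (chr1:107677050-107677299, plus strand). The stretch of Ltb ends early because the annotation places bases nearer to the start inside the gene. Capitals mark the only match to the motifs searched.
Ltb: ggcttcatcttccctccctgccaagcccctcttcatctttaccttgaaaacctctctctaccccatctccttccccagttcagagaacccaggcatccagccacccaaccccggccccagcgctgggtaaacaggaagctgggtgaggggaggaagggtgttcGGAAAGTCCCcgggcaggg
Tnf: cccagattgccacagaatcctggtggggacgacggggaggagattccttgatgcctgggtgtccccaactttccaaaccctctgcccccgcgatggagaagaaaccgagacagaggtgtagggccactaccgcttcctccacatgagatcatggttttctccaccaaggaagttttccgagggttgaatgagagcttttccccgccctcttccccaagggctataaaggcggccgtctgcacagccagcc
Tnfrsf11a: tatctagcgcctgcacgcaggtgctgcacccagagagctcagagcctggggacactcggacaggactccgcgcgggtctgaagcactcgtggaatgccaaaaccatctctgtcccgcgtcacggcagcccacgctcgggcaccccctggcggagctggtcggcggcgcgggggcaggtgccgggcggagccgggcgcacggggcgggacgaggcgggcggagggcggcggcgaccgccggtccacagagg

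Motifs were searched on both strands of the 250 bases before each start, and matches to different motifs could overlap. The letters were TTC and GAA with any 4 bases between them for STAT6, GGGA and TTTCC with any 1 base between them for NF-kappaB, GAGGAAGT for PU.1 and TGANTCA for AP-1. The capitals in the Ltb sequence are a match to the NF-kappaB letters on the opposite strand, at bases -87 to -78. Of 32851 promoters, 0.356% held these letters. The STAT6 letters were in the windows of 3 of the 21 tested genes with a promoter entry (Lta, Ltbr and Tnfsf13b) against 5.85% of all promoters, and the AP-1 letters in those of 5 (Fas, Tnfrsf8, Tnfsf13, Tnfsf13b and Tnfsf14) against 6.75%. The PU.1 letters were in 1 (Tnfsf18) against 2.44%. The 21 genes had 23 entries, and a gene was counted if any of its entries matched. The background shares are per entry, over all 32851. No entry was at hand for Tnfsf9, Tnfsf12, Tnfrsf10b, Tnfrsf22 and Tnfrsf26. These matches are descriptions of letters in a window and were not tested as binding sites.

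The first question was which of these genes responded to IL4 in control cells. In shGFP cells, the ligand genes Ltb, Tnfsf9 and Tnf were lower with IL4, at 48.7%, 52.8% and 64.6% of their level without it on this scale. The receptor gene Tnfrsf11a was higher, at 132%. Of the 26 genes, 3 were higher and 7 lower at an adjusted p under 0.05 (limma, Benjamini-Hochberg over 12905 genes), which is 38.5% called. Among all genes tested, 26.9% were called, 13.1% higher and 13.7% lower. The median log2 difference of the 26 was 0.0041 and that of all genes -0.0005. Ligands accounted for 4 of the lower calls (Ltb, Tnfsf9, Tnf and Tnfsf12) and receptors for 3 (Tnfrsf22, Tnfrsf26 and Tnfrsf1a). In bulk RNA, fewer cells that express a gene and less RNA per cell cannot be told apart.

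Ltb encodes lymphotoxin beta, the membrane subunit that assembles with the product of Lta and signals through Ltbr. Its values were 8.85, 8.75, 8.77 and 8.83 in shGFP cells and 7.72, 7.75, 7.80 and 7.78 with IL4. In shKDM1A cells they were 8.21, 8.23, 8.12 and 8.13 without IL4, and 7.61, 7.48, 7.44 and 7.48 with it. The 4 groups did not overlap at all, with shGFP highest and shKDM1A with IL4 lowest. The log2 difference between IL4 and no IL4 was -1.04 ± 0.04 (SE) in shGFP cells (adjusted p = 3.1e-12). Depletion of KDM1A without IL4 gave -0.63 ± 0.04 (adjusted p = 9.2e-10), and with IL4 -0.26 ± 0.04 (adjusted p = 3.4e-05).

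The partner gene Lta was near the bottom of the tested range (2.94 to 3.02 over the 16 libraries) and was called in no comparison. Its lymphotoxin receptor Ltbr was abundant, between 10.24 and 10.46, and was likewise called in none. Its log2 difference with IL4 in shGFP cells was 0.04, with a 95% interval from -0.04 to 0.11. Within this ligand and receptor system, the called differences were thus in Ltb.

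Tnf, the founding cytokine of the family, had values of 10.26, 10.13, 10.16 and 10.20 in shGFP cells and of 9.63, 9.48, 9.49 and 9.64 with IL4. In shKDM1A cells it had values of 9.94, 9.95, 9.93 and 9.92, and with IL4 of 9.54, 9.51, 9.53 and 9.40. Every library without IL4 lay above every library with IL4 in both lines, and the shKDM1A libraries without IL4 lay below all shGFP libraries without it, whereas the 2 groups with IL4 overlapped. The IL4 difference was -0.63 ± 0.04 in shGFP cells (adjusted p = 4.4e-09). Between shKDM1A and shGFP cells it was -0.25 ± 0.04 without IL4 (adjusted p = 0.00011) and -0.06 ± 0.04 with IL4, which did not pass the threshold (adjusted p = 0.25, 95% interval -0.15 to 0.03).

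The 2 receptors of TNF are the widely expressed, death domain-bearing Tnfrsf1a and the TRAF-binding Tnfrsf1b. Tnfrsf1a was between 10.99 and 11.21 in all libraries, and its single call was a decrease with IL4 in shGFP cells (-0.10 ± 0.03, adjusted p = 0.032). Tnfrsf1b had values of 9.86, 9.92, 9.87 and 9.83 in shGFP cells and of 9.45, 9.57, 9.47 and 9.49 in shKDM1A cells. With IL4 these were 9.91, 9.95, 10.00 and 9.99 in shGFP cells and 9.73, 9.57, 9.67 and 9.70 in shKDM1A cells. All shKDM1A libraries were below all shGFP libraries at the same IL4 state. The difference was -0.37 ± 0.03 without IL4 (adjusted p = 2.3e-07) and -0.30 ± 0.03 with IL4 (adjusted p = 3.8e-06).

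IL4 itself moved Tnfrsf1b little. The log2 difference was 0.17 ± 0.03 in shKDM1A cells (adjusted p = 0.0013). In shGFP cells it was 0.09 ± 0.03 and missed the threshold (adjusted p = 0.061), but the adjusted p fell to between 0.029 and 0.045 without replicate 2 of shGFP, replicate 1 of shGFP with IL4, replicate 2 of shKDM1A or replicate 2 of shKDM1A with IL4, where the difference was 0.09 to 0.11. It also passed after quantile normalization (0.11, adjusted p = 0.033) and when the 2 groups were fitted alone (0.09, adjusted p = 0.033). The IL4 responses of the 2 lines were not shown to differ (0.08 ± 0.05, adjusted p = 0.36).

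Tnfsf9 encodes a costimulatory ligand whose receptor is the product of Tnfrsf9. It had values of 9.69, 9.76, 9.73 and 9.79 in shGFP cells and of 8.85, 8.77, 8.84 and 8.82 with IL4. In shKDM1A cells these were 9.63, 9.67, 9.67 and 9.67, and with IL4 9.00, 8.90, 8.93 and 8.99. No 2 of the 4 groups overlapped, and the 2 lines exchanged their order, with shGFP higher without IL4 and shKDM1A higher with it. The IL4 difference was -0.92 ± 0.03 in shGFP cells (adjusted p = 3e-13), so this gene was next to Ltb in size. The shKDM1A difference was 0.13 ± 0.03 with IL4 (adjusted p = 0.0008). Without IL4 it was -0.08 ± 0.03 (adjusted p = 0.025), and this call was lost without replicate 2 of shGFP (-0.07, adjusted p = 0.065), replicate 4 of shGFP (-0.07, adjusted p = 0.084) or replicate 1 of shKDM1A (-0.07, adjusted p = 0.072). It was also lost without replicates 1 and 4 of shGFP (-0.08, adjusted p = 0.064) and, with all libraries, under a trended prior variance (-0.08, adjusted p = 0.061).

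Tnfrsf11a encodes RANK, the receptor through which the ligand RANKL drives precursors of the macrophage lineage to become osteoclasts. Its values were 11.08 in all 4 libraries of shGFP and 11.50, 11.52, 11.46 and 11.45 with IL4. In shKDM1A cells they were 11.30, 11.32, 11.37 and 11.28, and with IL4 11.57, 11.70, 11.60 and 11.71. The groups did not overlap and rose from shGFP through shKDM1A and shGFP with IL4 to shKDM1A with IL4. Within the last group, replicates 1 and 3, which stood apart on the third component, were the lower pair. The log2 difference with IL4 was 0.40 ± 0.03 in shGFP cells (adjusted p = 3.6e-08) and 0.33 ± 0.03 in shKDM1A cells (adjusted p = 4.9e-07). For shKDM1A against shGFP it was 0.24 ± 0.03 without IL4 (adjusted p = 9.6e-06) and 0.16 ± 0.03 with IL4 (adjusted p = 0.00041).

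Neither RANKL (Tnfsf11) nor its soluble decoy receptor osteoprotegerin (Tnfrsf11b) had a value other than 0 in any library. Of 6 osteoclast markers 5 passed the filter, the exception being Calcr (-2.27 to -2.26). With IL4 in shGFP cells, 2 of them were higher (Acp5 by 0.35 and Ocstamp by 0.29) and 2 lower (Dcstamp, -0.54, and Ctsk, -0.09). The summed log2 value of the 6 was 33.4 to 33.7 in shGFP cells and 33.5 to 33.7 with IL4, and 34.7 to 34.9 in shKDM1A cells and 34.4 to 34.6 with IL4. In shKDM1A cells without IL4, Atp6v0d2 and Ctsk were higher than in shGFP cells by 0.84 ± 0.05 and 0.44 ± 0.02, Ocstamp was lower (-0.17 ± 0.03), and Acp5 and Dcstamp (0.06 ± 0.03 for each) were not called. The sums were thus higher in shKDM1A cells, as Tnfrsf11a was, but lower with IL4 in those cells, where Tnfrsf11a was higher, and their part in its values was not tested.

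**Figure D2:**
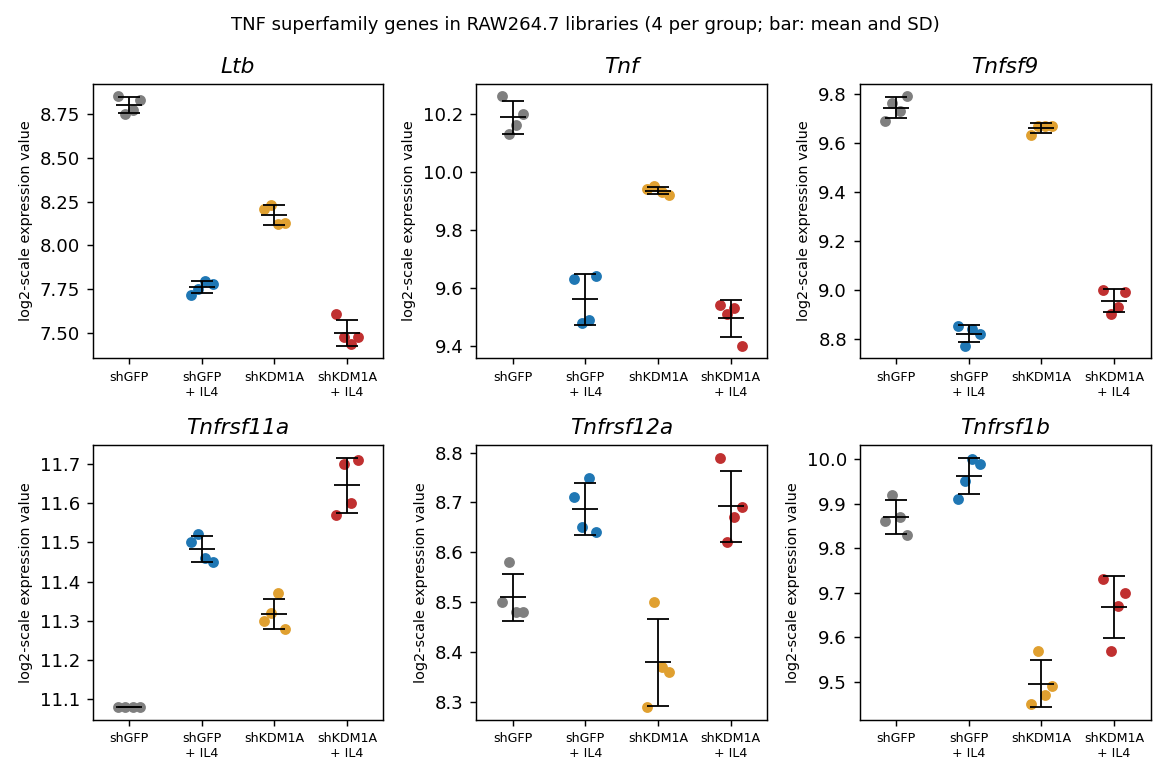
Log2-scale values (vertical axes, which differ between panels and do not start at 0) of the 6 TNF superfamily genes with a called difference over 0.3, in the 4 groups of RAW cells. Points are libraries, and bars are the mean and SD of 4. The ligand genes in the upper row fell with IL4, and Tnfrsf11a rose in each step from 11.08 to at most 11.71.

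Tnfrsf12a encodes FN14, the receptor of the ligand TWEAK (Tnfsf12). It had values of 8.50, 8.58, 8.48 and 8.48 in shGFP cells and of 8.71, 8.65, 8.75 and 8.64 with IL4. In shKDM1A cells these were 8.29, 8.50, 8.37 and 8.36, and with IL4 8.79, 8.62, 8.67 and 8.69. The libraries with IL4 were above those without it in both lines, and shGFP and shKDM1A libraries overlapped at either IL4 state. The IL4 difference was 0.18 ± 0.04 in shGFP cells (adjusted p = 0.0059) and 0.31 ± 0.04 in shKDM1A cells (adjusted p = 4.6e-05). Without replicates 1 and 4 of shGFP, the pair apart on the third component, the former was 0.16 and no longer called (adjusted p = 0.067). Without IL4, the difference between shKDM1A and shGFP cells was -0.13 ± 0.04 (adjusted p = 0.026). This call was lost without replicate 2 of shGFP (-0.11, adjusted p = 0.083), without replicates 1 and 4 of shGFP (-0.15, adjusted p = 0.061) and without replicate 1, 3 or 4 of shKDM1A (-0.10, -0.13 and -0.12, adjusted p = 0.09, 0.055 and 0.062).

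Exons of Tnfrsf12a overlap those of Hcfc1r1 on the opposite strand, and the counting did not use strand, so reads of the pair cannot be told apart there. Hcfc1r1 differed by 0.00 ± 0.03 with IL4 in shGFP cells and by 0.09 ± 0.03 in shKDM1A cells (adjusted p = 0.051). The ligand gene Tnfsf12 was lower with IL4, at -0.18 ± 0.04 in shGFP cells (adjusted p = 0.0025) and -0.14 ± 0.04 in shKDM1A cells (adjusted p = 0.0097), and higher in shKDM1A cells by 0.13 ± 0.04 without IL4 and 0.17 ± 0.04 with it, where its receptor differed by 0.00 ± 0.04 (adjusted p = 0.98). Exons of Tnfsf12 and of Tnfsf13 overlap those of a combined gene model, BC096441, and those of Tnfsf13 also overlap 2010012P19Rik on the opposite strand, so the split of reads among them is uncertain.

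Tnfsf13b, which encodes BAFF, was the only ligand gene higher with IL4, and its calls were in 1 direction throughout. Its values ranged from 5.50 to 5.62 in shGFP cells, from 5.63 to 5.75 with IL4, from 5.70 to 5.83 in shKDM1A cells and from 5.88 to 6.01 in shKDM1A cells with IL4. The shKDM1A group with IL4 lay above all other libraries. The differences were 0.13 ± 0.04 and 0.18 ± 0.04 for IL4 in shGFP and shKDM1A cells (adjusted p = 0.017 and 0.0014). For shKDM1A they were 0.17 ± 0.04 without IL4 and 0.22 ± 0.04 with IL4 (adjusted p = 0.0015 and 0.00013). The related ligand gene Tnfsf13, which encodes APRIL, differed in shKDM1A cells with IL4 (-0.17 ± 0.04, adjusted p = 0.0012) and was called in none of the other comparisons.

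Among receptors of the death ligand TRAIL and their relatives, Tnfrsf22 and Tnfrsf23 encode mouse decoy receptors, and together with Tnfrsf26 they form a run of related genes on chromosome 7, so reads could be shared among them. Tnfrsf22 was lower with IL4, at -0.19 ± 0.05 in shGFP cells (adjusted p = 0.0057) and -0.23 ± 0.05 in shKDM1A cells (adjusted p = 0.0015). Tnfrsf26 was lower in all 4 comparisons. The differences were -0.20 ± 0.04 for IL4 in shGFP cells and for shKDM1A without IL4, and -0.13 ± 0.04 for the other two. Tnfrsf23, on the other side of Tnfrsf22 from Tnfrsf26, was between 8.41 and 8.71 and was called in none. Tnfrsf10b, the death receptor of TRAIL in the mouse, was called higher in shKDM1A cells with IL4 (0.14 ± 0.05, adjusted p = 0.037) and not called without it (0.06 ± 0.05), and these 2 values were not shown to differ (0.08 ± 0.07, adjusted p = 0.54). The value without IL4 includes replicate 2 of shKDM1A, which stood below the rest of its group (6.72 against 6.94 to 6.97). The gene of the ligand itself, Tnfsf10, was weak (2.30 to 2.42) and not called.

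Fas, the death receptor, was higher in shKDM1A cells by 0.11 ± 0.03 without IL4 (adjusted p = 0.016) and by 0.12 ± 0.03 with IL4 (adjusted p = 0.012). Its values spanned 5.24 to 5.29 in shGFP cells and 5.32 to 5.44 in shKDM1A cells. These 2 groups did not overlap, while those with IL4 did. With IL4, its log2 difference was 0.06 ± 0.03 in shGFP cells and was not called.

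The other 8 tested genes that were called in no comparison besides Lta, Ltbr and Tnfrsf23 include several best known from lymphocytes. They are the ligand genes Tnfsf8, Tnfsf10, Tnfsf14 and Tnfsf18 and the receptor genes Tnfrsf4, Tnfrsf14, Tnfrsf17 and Tnfrsf25. Their values lay between 1.10 (Tnfsf8) and 4.62 (Tnfrsf14). With Lta and Tnfrsf8 they make up the 10 tested genes with no value of 5, whose differences in the 4 comparisons lay between -0.06 and 0.04. Among these 10, the CD30 gene Tnfrsf8 was called, with -0.06 ± 0.02 in shKDM1A cells with IL4 (adjusted p = 0.033). Larger differences in these weak genes may not be detectable at this depth and on this scale.

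For KDM1A depletion, the number of these genes called was close to the background. Without IL4, 4 were higher and 6 lower in shKDM1A cells, 38.5% of the 26, against 38.2% of all genes (19.7% higher and 18.4% lower), with a median log2 difference of -0.0052 against -0.0027. With IL4, 6 were higher and 5 lower, 42.3% against 40.7% (20.9% higher and 19.8% lower), with a median of 0.008 against -0.0024. Called in the same direction at both IL4 states were 7 genes, 26.9% of the 26, against 25.1% of all genes. Of these, Ltb, Tnfrsf1b and Tnfrsf26 were lower and Tnfrsf11a, Tnfsf12, Tnfsf13b and Fas were higher. These 2 comparisons share no libraries with each other, but each shares its groups with the IL4 comparisons. The share of higher calls among all genes moved from 51.7% to 43.2% without IL4 when libraries were quantile normalized, and to 51.8% with median centring. With IL4 it moved from 51.3% to 45% and 56.7% by these methods. Median centring also moved it from 50.1% to 56.5% for IL4 in shKDM1A cells. For the difference between the 2 IL4 responses it moved from 58% to 66.2%, and for IL4 in shGFP cells from 48.9% to 49.3%.

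**Figure D3:**
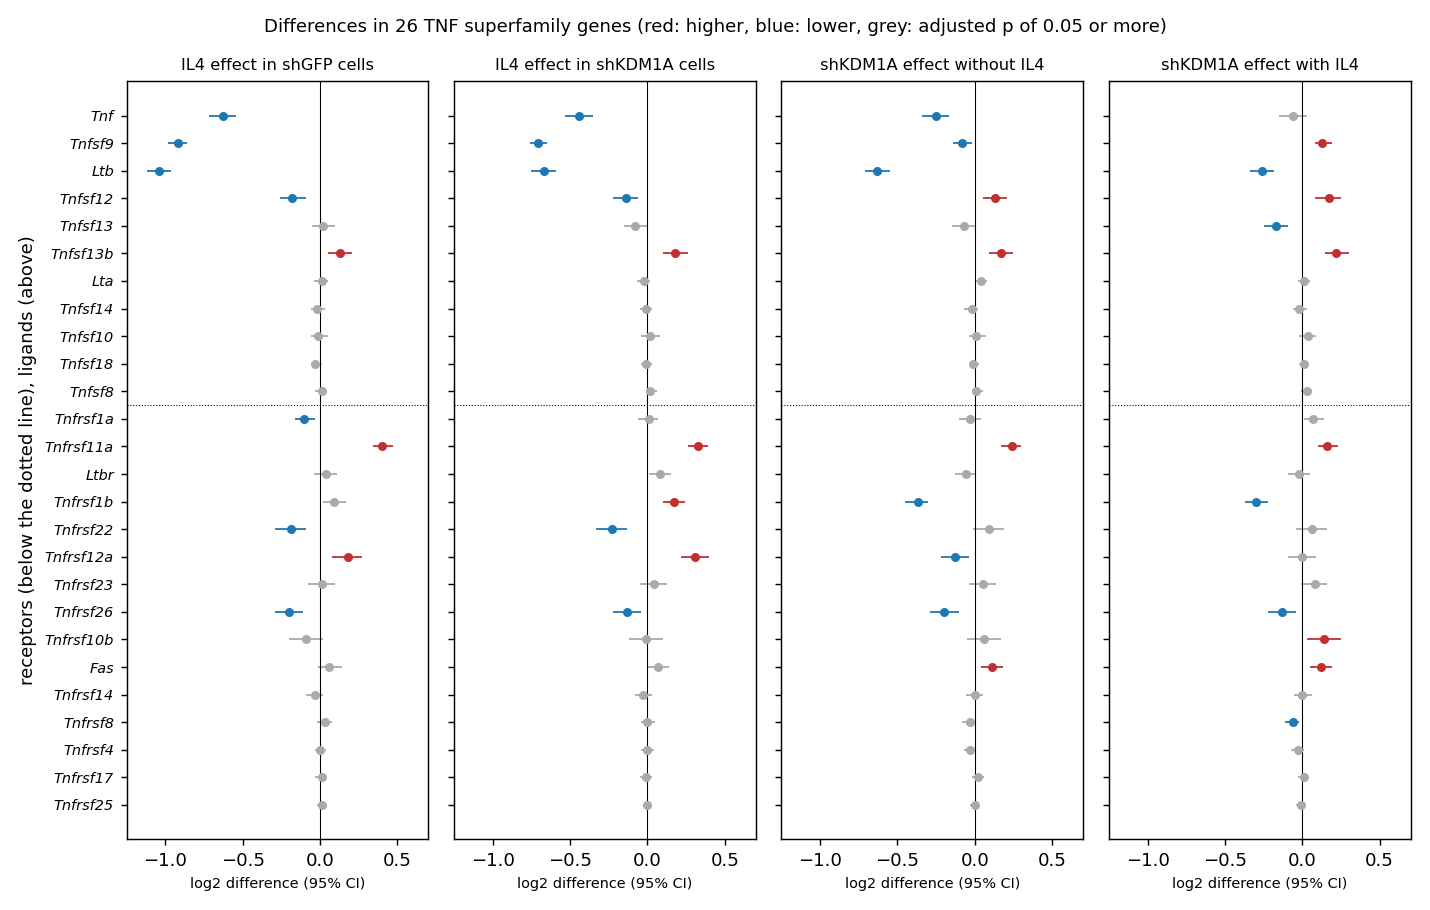
Log2 differences (horizontal axes) of the 26 tested TNF superfamily genes in 4 comparisons, with 95% intervals. Red points were higher and blue points lower at an adjusted p under 0.05, and grey points were not called. Each IL4 panel holds 10 called genes, with Ltb (-1.04 and -0.67) and Tnfsf9 (-0.92 and -0.71) farthest from 0, and the shKDM1A panels hold 10 and 11.

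The next question was whether depletion of KDM1A changed the response to IL4. In shKDM1A cells, 4 of the 26 genes were higher with IL4 and 6 lower, 38.5%, against 27.1% of all genes (13.6% higher and 13.5% lower), with a median of -0.0042 against -0.0025. Called in the same direction in both lines were 9 genes, 34.6% of the 26, against 14.4% of all genes. Of these, Ltb, Tnf, Tnfsf9, Tnfsf12, Tnfrsf22 and Tnfrsf26 were lower, and Tnfrsf11a, Tnfrsf12a and Tnfsf13b were higher, with the loss given above for Tnfrsf12a.

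The difference between the 2 responses was called for 2 of the 26 genes, 7.69%, against 6.13% of all genes (3.56% higher and 2.57% lower). The median log2 difference was 0.0212 against -0.0015. The IL4 response of Ltb was -1.04 on the log2 scale in shGFP cells and -0.67 in shKDM1A cells, a difference of 0.37 ± 0.05 (adjusted p = 0.00059). Tnfsf9 had responses of -0.92 and -0.71, a difference of 0.22 ± 0.04 (adjusted p = 0.0032). In both genes the decrease was smaller in shKDM1A cells. Their starting points differed, since without IL4 Ltb differed by -0.63 between shKDM1A and shGFP cells.

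For Tnf the responses were -0.63 and -0.44, and their difference of 0.19 ± 0.06 missed the threshold (adjusted p = 0.059, 95% interval 0.07 to 0.31). It passed without replicate 1 of shGFP with IL4 (0.21, adjusted p = 0.046), without replicate 4 of that group (0.22, adjusted p = 0.04) or without replicate 4 of shKDM1A with IL4 (0.22, adjusted p = 0.022). It also passed with all libraries after median centring (0.20, adjusted p = 0.049) and with a trended prior variance (0.19, adjusted p = 0.039). Over 24 alternatives its adjusted p ran from 0.022 to 0.26. The responses of Tnfrsf11a differed by -0.08 ± 0.04 (adjusted p = 0.32) and those of Tnfrsf12a by 0.13 ± 0.06 (adjusted p = 0.21).

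**Figure D4:**
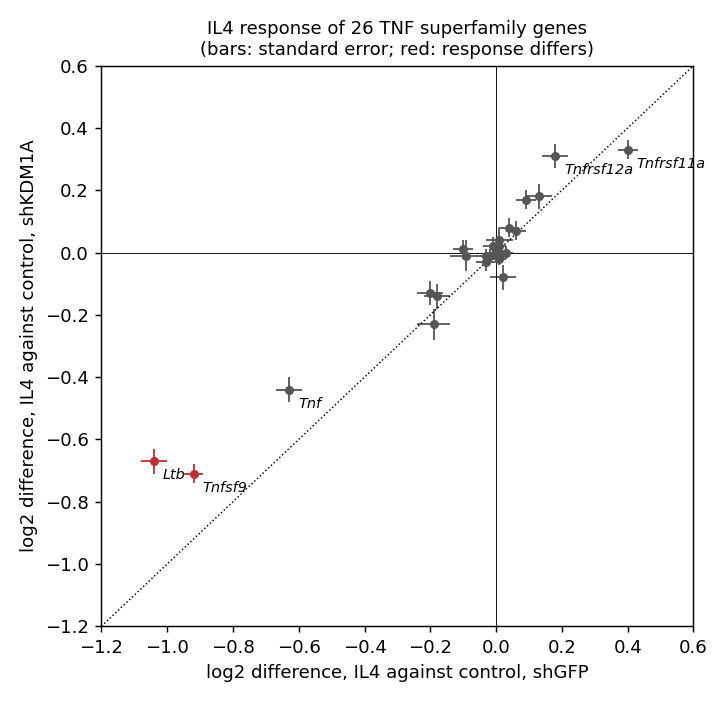
Log2 difference with IL4 in shGFP cells (horizontal axis) and in shKDM1A cells (vertical axis) of the 26 tested TNF superfamily genes, with standard errors as bars and the line of equal response dotted. Red points, Ltb and Tnfsf9, are the genes whose 2 responses differed at an adjusted p under 0.05, and both lie above the line.

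The Tnf messenger is known to be unstable through AU-rich elements in its 3′ UTR, which the RNA-binding protein tristetraprolin, the product of Zfp36, recognizes. The heptamer TATTTAT occurred 8 times in the 764 bases of the annotated 3′ UTR of Tnf. It occurred at least once in 12 of the 25 tested family genes with an annotated 3′ UTR, against 27% of 10515 tested genes, and at least 3 times in 5 of the 25 (Lta, Tnf, Tnfrsf10b, Tnfsf10 and Tnfsf8), against 3.24%. These counts were not adjusted for UTR length. The 3 matches each of Tnfsf10, Tnfsf8, Tnfrsf10b and Lta lie in 3998, 2799, 1837 and 572 bases. The densest stretch of the Tnf 3′ UTR is shown because it carries 5 of the 8 matches there, some of which overlap. It lies in the 3′ UTR at chr17:35336623-35336652 (minus strand, NCBIM37), and capitals mark the heptamers.
Tnf element: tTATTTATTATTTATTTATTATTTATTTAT

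Zfp36 values were 9.97, 9.96, 10.03 and 9.92 in shGFP cells and 10.48, 10.39, 10.35 and 10.43 with IL4. In shKDM1A cells they were 10.31, 10.28, 10.20 and 10.25, and with IL4 10.63, 10.61, 10.61 and 10.59. The 4 groups did not overlap, and their order was the reverse of that of Tnf for the groups without IL4 and for IL4 within each line. The IL4 difference was 0.44 ± 0.03 in shGFP cells (adjusted p = 9.9e-09) and 0.35 ± 0.03 in shKDM1A cells (adjusted p = 2.1e-07), and depletion of KDM1A gave 0.29 ± 0.03 without IL4 and 0.20 ± 0.03 with IL4. The part of Zfp36 in the Tnf values was not tested.

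Genes that carry the signal of these receptors were taken from a list of 50 adaptors, kinases, ubiquitin enzymes, NF-kappaB subunits and inhibitors, and processing factors, all of which passed the filter. In shGFP cells 6 of the 50 were higher and 15 lower with IL4, which is 42% called against 26.9% of all genes, and in shKDM1A cells 7 were higher and 16 lower, 46% against 27.1%. For shKDM1A against shGFP, 14 were higher and 13 lower without IL4, 54% against 38.2%, and 17 were higher and 10 lower with IL4, 54% against 40.7%. Their median log2 differences, in that order, were -0.0062, -0.0292, 0.0021 and 0.0075.

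Litaf, named for a proposed role in Tnf transcription after lipopolysaccharide, was lower with IL4, at -0.49 ± 0.02 in shGFP cells and -0.42 ± 0.02 in shKDM1A cells. It was also lower in shKDM1A than in shGFP cells, at -0.19 ± 0.02 without IL4 and -0.12 ± 0.02 with IL4. Adam17, the protease that sheds membrane TNF, was lower with IL4, at -0.30 ± 0.02 and -0.32 ± 0.02, and higher in shKDM1A cells by 0.21 ± 0.02 and 0.20 ± 0.02.

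Traf1, which encodes an adaptor of TNFR2 and related receptors, had values of 8.32, 8.33, 8.36 and 8.38 in shGFP cells and of 7.71, 7.76, 7.71 and 7.75 with IL4. In shKDM1A cells it had values of 8.13, 8.09, 8.23 and 8.09, and with IL4 of 7.94, 7.78, 7.99 and 7.92. All groups were apart, and as for Tnfsf9 the 2 lines exchanged their order with IL4. Its response was -0.61 ± 0.04 in shGFP and -0.23 ± 0.04 in shKDM1A cells, a difference of 0.38 ± 0.06 (adjusted p = 0.00073). Without IL4, shKDM1A cells differed from shGFP cells by -0.21 ± 0.04. With IL4, they were 0.17 above shGFP cells, and 0.11 above them (adjusted p = 0.056) without replicates 1 and 3 of shKDM1A with IL4. Birc3, the ubiquitin ligase cIAP2, was lower with IL4 (-0.29 ± 0.03 and -0.19 ± 0.03) and higher in shKDM1A cells (0.41 ± 0.03 without and 0.51 ± 0.03 with IL4). Cflar, which encodes the caspase-8 inhibitor c-FLIP, was lower with IL4 in both lines (-0.31 ± 0.04 and -0.42 ± 0.04), and Ripk3, the kinase of necroptosis, was higher in all 4 comparisons (0.15 to 0.24).

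Ikbke, an IKK-related kinase, was lower with IL4, at -0.44 ± 0.04 and -0.33 ± 0.04. Ikbkg, the IKK subunit NEMO, was higher in shKDM1A cells by 0.29 ± 0.04 without IL4 and 0.21 ± 0.04 with IL4. Map3k5, the stress kinase ASK1, was lower in shKDM1A cells with IL4 (-0.22 ± 0.03).

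Among NF-kappaB subunits, Nfkb1 was higher with IL4 by 0.33 ± 0.02 in shGFP cells and by 0.52 ± 0.02 in shKDM1A cells, a difference of 0.19 ± 0.03 (adjusted p = 0.00089). Of the other subunits, Nfkb2 (-0.12 ± 0.02 and -0.19 ± 0.02) and Relb (-0.20 ± 0.05 and -0.18 ± 0.05) were lower with IL4 in both lines, and Rela was lower in shKDM1A cells (-0.09 ± 0.03, adjusted p = 0.045). Rel was higher with IL4 in shGFP cells by 0.38 ± 0.04, and with IL4 it was lower in shKDM1A than in shGFP cells (-0.42 ± 0.04, adjusted p = 6.9e-07). In shKDM1A cells its IL4 response was 0.08 ± 0.04 (adjusted p = 0.18), a difference of -0.29 ± 0.06 (adjusted p = 0.0085). Without replicate 1 of shKDM1A with IL4 that response was 0.12 (adjusted p = 0.036), and without replicates 1 and 3, the pair apart on the third component, it was 0.17 (adjusted p = 0.0048). In all, the IL4 responses of 6 of the 50 signalling genes differed between the lines, 12% against 6.13% of all genes (3.56% higher and 2.57% lower), 5 of them more positive in shKDM1A cells (Traf1, Nfkbib, Tnip1, Nfkb1 and Tnip3) and Rel less so.

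**Figure D5:**
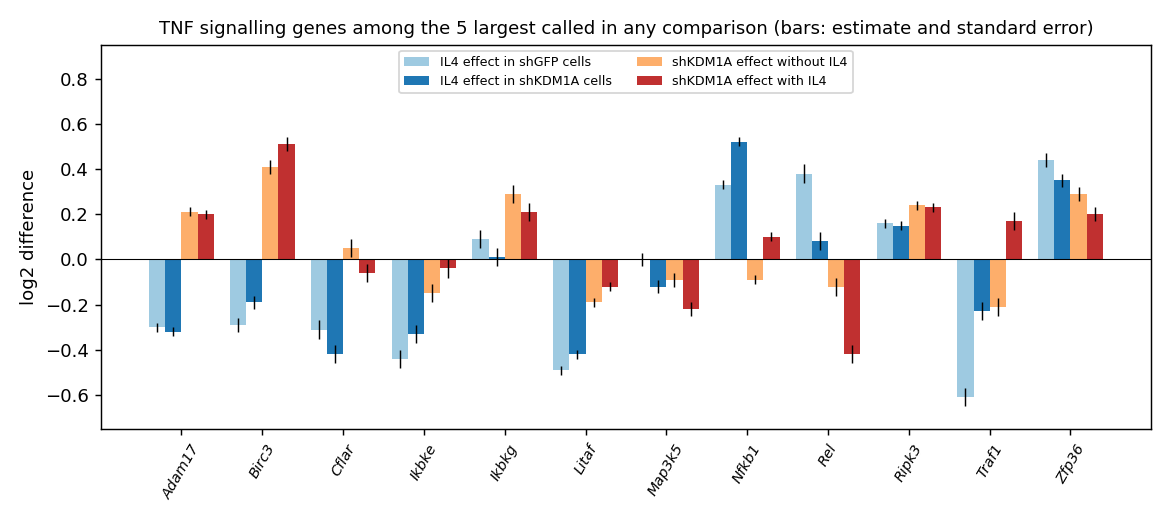
Log2 differences (vertical axis) in 4 comparisons of the 12 signalling genes that were among the 5 with the largest called differences in at least 1 of them, with standard errors as bars. Traf1 and Rel have the most unequal IL4 bars, and Zfp36 and Ripk3 rise in all 4 comparisons.

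Of 10 family members with symbols outside the rule, 5 were listed at 0 in every library and 3 passed the filter. Cd40, which encodes a costimulatory receptor, was higher in shKDM1A cells by 0.18 ± 0.03 without IL4 and 0.12 ± 0.03 with IL4. Relt was lower in them (-0.30 ± 0.04 and -0.24 ± 0.04) and lower with IL4 in shGFP cells (-0.17 ± 0.04). Eda2r was higher in shKDM1A cells without IL4 (0.08 ± 0.03) and lower with IL4 in shKDM1A cells (-0.08 ± 0.03).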

How the data were processed

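RNA-seq of 16 RAW cell libraries was analysed. Per the file headers and the submitters' processing notes, the authors aligned reads to mm9 with HISAT2 and Bowtie2 and counted exon tags of both strands with HOMER, 1 transcript per gene, and used DESeq2. The deposited RAW values are logarithms (log2) written with decimal commas. The transformation is not given in the sources used here, and the values resemble DESeq2's regularized log. Columns with the authors' own comparisons (fold changes with raw and adjusted p-values) make up the BMDM table and part of the RAW table and were not used.

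Genes that reached 1 in 4 or more libraries (12905 of 25094, where 8488 genes were 0 throughout) were fitted in limma 3.58.1 (R 4.3.3) as group means over all 16 libraries. The 5 contrasts were adjusted by Benjamini-Hochberg, with a threshold of 0.05, and standard errors are limma's moderated ones. Because the values were logarithms and not counts, no count model was fitted and no pseudocount was added. The fit was tested on simulated data. Further calculations used Python 3.11.15.

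Values per library were given for Tnf and each family gene called with an absolute log2 difference over 0.3, and differences for the 5 signalling genes with the largest called differences in each of the 4 simple contrasts. A few other genes were named beside these after their values were seen. Members and lists were chosen with earlier results of these data known. Transcript overlaps and 3′ UTRs are from GENCODE M1 (NCBIM37), and upstream sequences are RefSeq's (GRCm38.p6), placed on NCBIM37 by sequence match. Alternatives were other filters, the 2 groups compared alone, median centring, quantile normalization, a trended prior, a fold limit, a replicate block and leaving out each library. Leaving out 2 pairs of libraries that stood apart on the third principal component was chosen after seeing the data.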

Additional observations from a re-analysis of the deposited data

Results flagged for a closer look

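In 8 of 156 groups of 4 libraries (39 genes), 1 library stood apart from the other 3 by Dixon's criterion, which chance alone meets in about 1 of 20 groups. In shKDM1A cells these were replicate 1 for Birc3 (9.83 against 9.96 to 9.99), Litaf (11.50 against 11.44 to 11.45) and Tnfsf9 (9.63 against 9.67), replicate 2 for Tnfrsf10b (6.72 against 6.94 to 6.97) and Tnfrsf23 (8.56 against 8.49), and replicate 3 for Cflar (10.70 against 10.64 to 10.65). In shKDM1A cells with IL4 it was replicate 4 for Tnfrsf23 (8.71 against 8.47 to 8.50), and in shGFP cells replicate 2 for Tnfsf8 (1.11 against 1.10).

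The response to IL4 differed between shKDM1A and shGFP cells in 2 of the 26 family genes and 6 of the 50 signalling genes by the contrast of the 2 responses, against 6.13% of all genes. The log2 differences, shKDM1A minus shGFP, were 0.37 for Ltb, 0.22 for Tnfsf9, 0.38 for Traf1, 0.23 for Nfkbib, 0.21 for Tnip1, 0.19 for Nfkb1, 0.18 for Tnip3 and -0.29 for Rel.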

How the results depend on the processing

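When calls also needed an absolute log2 difference above 0.5, the family genes called were 3 and 2 for IL4 in shGFP and shKDM1A cells, 1 and 0 for shKDM1A without and with IL4, and 0 for the difference in response, and the signalling genes called were 1, 1, 0, 1 and 0 in the same order. Leaving out 1 library gave 8 to 11, 9 to 10, 8 to 12, 8 to 12 and 2 to 3 family genes, and 20 to 22, 19 to 23, 23 to 29, 25 to 29 and 5 to 7 signalling genes. Without replicates 1 and 3 of shKDM1A with IL4, 10, 8, 11, 8 and 2 family genes were called, and without replicates 1 and 4 of shGFP 7, 10, 7, 11 and 2.

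Pairing of the libraries by replicate number was neither shown nor excluded. Over 24 pairs of same-numbered libraries the correlation of deviations was -0.343 to 0.273 (median 0.045), with 3 above 0.1. Of 16 libraries, 7 correlated best with their own number. The splits on the third principal component also enter these correlations. With the replicate block, 9, 10, 10, 10 and 2 family genes and 20, 21, 27, 29 and 5 signalling genes were called.

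Over 25 alternatives (24 for the difference in response), 2294 of 2356 values of the 19 genes named by rule kept their side of the threshold. A call was lost in 47 and gained in 15, and 0 turned direction where either value was called. Sign changes between values that were not called were not counted. Cflar, for example, was at -0.06 in shKDM1A against shGFP cells with IL4, and ran from -0.08 to 0.01. The small decrease of Kdm1a with IL4 in shGFP cells was among the calls lost. The cause of these changes was not tested. Low expression limits what can be seen in the 10 weakest tested genes.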
